A study of Homo sapiens with 4 samples.

Results

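The start of PAFAH1B1 was used as a viewpoint in Hi-C, an assay that joins and sequences DNA ends lying close together in the nucleus. The viewpoint was the 10-kb window chr17:2588501-2598500 (hg38), chosen because it holds the first bases of PAFAH1B1 (ENSG00000007168.14), a gene of 92.4 kb on the plus strand at chr17:2593210-2685615 in GENCODE. It was 1 of 148 non-overlapping windows with values in all libraries, and 145 of these lay at least 20 kb away and served as its contact partners. The rule used positions only and no measured value, but the viewpoint was chosen with earlier results of these data known.

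The study examined H9, a long-established line of human embryonic stem cells (hESCs) of WT genotype, in the untreated state (2 libraries) and after neuroectodermal differentiation (2 libraries). Both groups thus came from 1 cell line. The sources used here do not say whether the replicates of a group were separate cultures. The p-values between cell types below thus measure the spread between these libraries, which may be technical. The Poisson p-values measure counting error only. Hi-C holds no expression values, and the identity of the cells could not be checked against marker genes.

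PAFAH1B1 encodes LIS1, a partner of the motor protein dynein that is needed for division of neural progenitors and for migration of neurons in the developing cortex. Loss of 1 copy causes lissencephaly, a smooth brain surface, and larger deletions that also remove YWHAE cause Miller-Dieker syndrome. Promoters contact other sites mostly within topologically associating domains, stretches of chromatin whose parts meet each other more often than they meet the outside. Contact falls steeply with distance, so each value below was set against the library's own mean for that distance, which is called the expectation.

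The promoter within the viewpoint is shown because every contact below was measured from the window that holds it. It covers chr17:2593404-2593703 on the plus strand (GRCh38.p14), 250 bases before to 50 bases after the start annotated in RefSeq. That start differs from the GENCODE start at 2593210, and the whole printed sequence lies downstream of the GENCODE start. Matches to 3 motifs on either strand are in capitals: TGACGTCA (cAMP response element), GGGCGG (GC box) and GCATGCGC (NRF1 core).

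PAFAH1B1 promoter: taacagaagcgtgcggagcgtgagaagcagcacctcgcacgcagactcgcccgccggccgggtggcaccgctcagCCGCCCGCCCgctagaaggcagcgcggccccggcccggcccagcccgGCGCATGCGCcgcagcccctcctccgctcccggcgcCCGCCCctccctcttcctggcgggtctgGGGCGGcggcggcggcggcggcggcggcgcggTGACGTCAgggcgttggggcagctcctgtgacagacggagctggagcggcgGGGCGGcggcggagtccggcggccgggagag

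The promoter had 79.3% G and C against a median of 58.7% over 35116 promoters of the same length, and 47 CpG dinucleotides against a median of 14. It held 1 match to the cAMP response element, found in 1.85% of those promoters, and 2 overlapping matches to the NRF1 core, found in 3.05%. GC boxes matched at 5 places, 2 of them overlapping, and 45.0% of promoters held at least 1. A match describes letters only, and binding was not measured.

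The viewpoint held 785 and 790 read pairs in hESCs and 350 and 389 in neuroectoderm. Of these, 533, 570, 213 and 244 joined it to windows at least 20 kb away, a mean of 3.68, 3.93, 1.47 and 1.68 read pairs per partner. Single partners therefore rested on few reads, and the neuroectoderm libraries were the less precise. Read pairs with both ends inside the viewpoint made up 15.0% (95% Wilson interval 12.7 to 17.7) and 13.4% (11.2 to 16.0) in hESCs. The share was 27.7% (23.3 to 32.6) and 26.7% (22.6 to 31.3) in neuroectoderm. The group means were 14.2% ± 1.14 and 27.2% ± 0.69 (SD, n = 2 each). The median over all 148 windows also rose, from 16.7% and 17.2% to 27.8% and 27.4%. The viewpoint's rank moved too. In hESCs 100 and 133 of the 148 windows had a higher share, and in neuroectoderm 76 and 83. The within-window share and the depth both differed between the groups, and their part in the comparisons of cell types was not tested. Over single partners the replicates of the viewpoint agreed within sampling noise in either group (chi-square per degree of freedom 0.861 over 29 hESC partners and 0.694 over 18 neuroectoderm partners), but the hESC replicates differed over the stretch between METTL16 and PAFAH1B1, as given below.

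No single partner passed the test against the expectation. In an exact one-sided Poisson test per library, 0 of 145 partners passed an adjusted p of 0.05 in both replicates, in hESCs and in neuroectoderm alike. Over all 10733 window pairs of the matrix the same rule called 0.168% in hESCs and 0% in neuroectoderm, so 0 of 145 was no departure from the background. At an unadjusted p of 0.05 in both replicates the viewpoint again had 0 partners in each group, against 1.6% and 0.68% of all pairs. With the replicates summed it also had 0, against 1.57% and 0.326%. The smallest adjusted p of any partner was 0.204, at chr17:2548501-2558500 in hESC replicate 2, which held 31 read pairs where 17.6 were expected. That window, between METTL16 and PAFAH1B1, held 21 read pairs against 18.7 expected in hESC replicate 1. It held 6 against 7.40 and 5 against 8.19 in the neuroectoderm libraries. Both hESC libraries thus lay above the expectation, replicate 2 by more, and both neuroectoderm libraries below it.

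**Figure D1:**
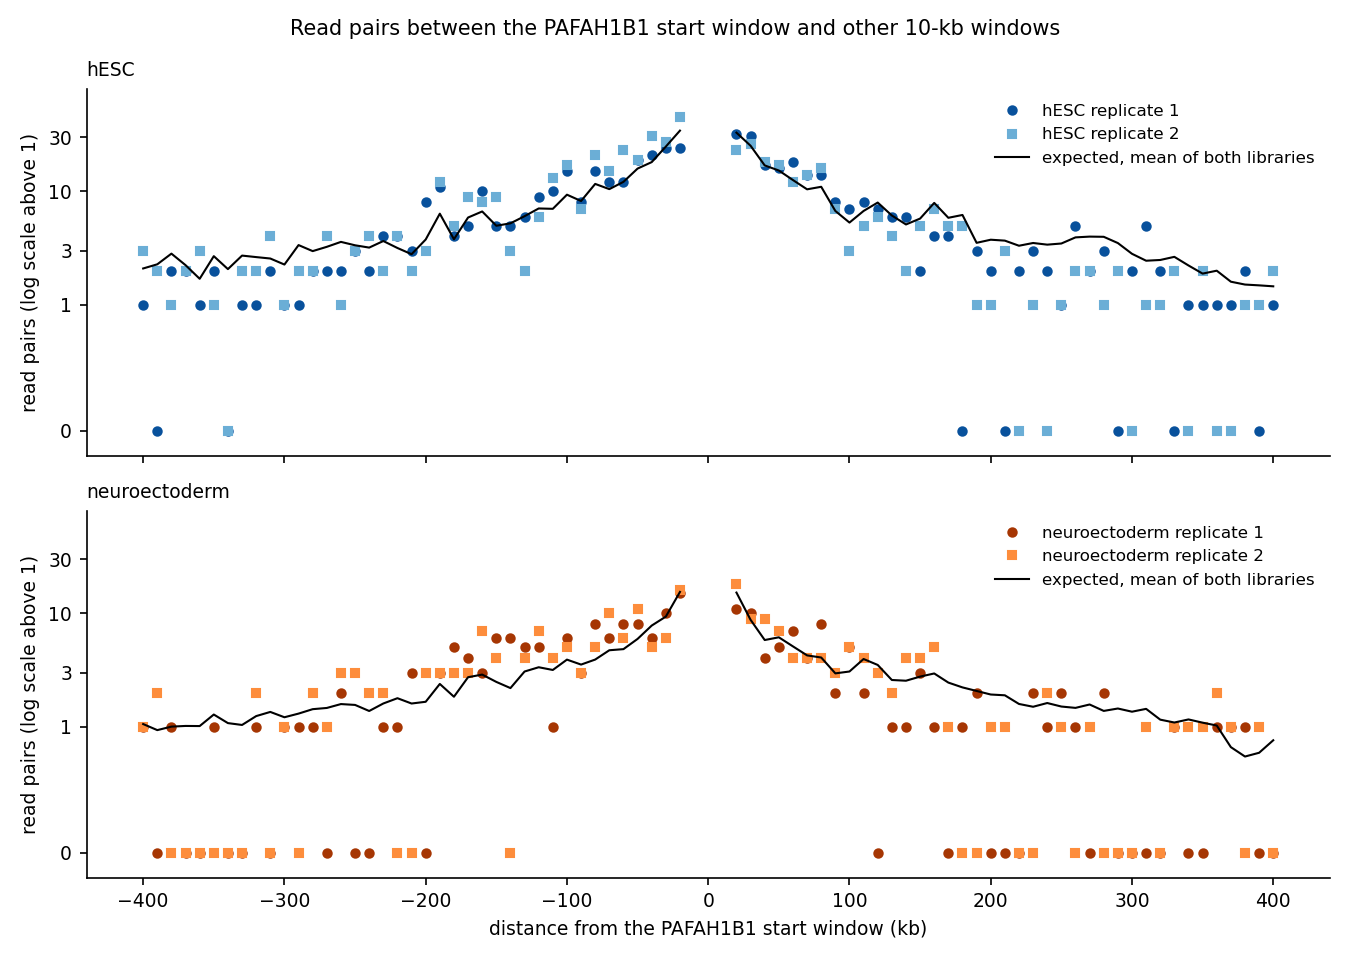
Read pairs (points, log scale above 1) between the PAFAH1B1 start window and each 10-kb window within 400 kb, by distance in kb, with the expectation as a line, for both hESC and both neuroectoderm libraries. Points lie mostly above the line from 50 to 190 kb toward lower coordinates and mostly below it beyond 110 kb toward higher coordinates.

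Partners were summed over bands of distance, which were chosen after seeing the data, and the sides separated only from 110 to 200 kb. From 60 to 100 kb toward lower coordinates, observed over expected read pairs were 1.17 and 1.64 in hESCs and 1.51 and 1.36 in neuroectoderm. Toward higher coordinates in that band they were 1.31 and 1.14 in hESCs and 1.41 and 0.98 in neuroectoderm, so the sides overlapped. From 110 to 200 kb toward lower coordinates they were 1.28, 1.24, 1.56 and 1.40. At the same 110 to 200 kb toward higher coordinates they were 0.70 and 0.71 in hESCs and 0.43 and 0.85 in neuroectoderm, so all 4 libraries lay below 1 and did not overlap with the opposite side. From 210 to 400 kb every library was below 1 on both sides, at 0.60, 0.41, 0.49 and 0.49 toward higher coordinates and 0.64, 0.82, 0.57 and 0.70 toward lower ones. In the nearest band, 20 to 50 kb, the ratios spread around 1 on both sides, from 0.89 to 1.30.

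METTL16, which encodes an RNA methyltransferase acting on U6 snRNA and on the MAT2A transcript, was the nearest gene toward lower coordinates. Its 10 windows shared 77 and 79 read pairs with the viewpoint in hESCs, where 64.8 and 63.6 were expected. In neuroectoderm they shared 44 and 40, where 27.5 and 30.8 were expected. All 4 libraries lay above 1, with ratios of 1.21 ± 0.04 in hESCs and 1.45 ± 0.21 in neuroectoderm (SD, n = 2 each). The 95% Poisson interval of the summed replicates was 1.03 to 1.42 in hESCs and 1.15 to 1.78 in neuroectoderm, counting error only. The window with the start of METTL16 (chr17:2508501-2518500) was not among these 10. It was above its expectation in each library, at 15, 21, 8 and 5 read pairs against 12.2, 11.1, 3.76 and 4.06.

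MNT, a MAX-binding repressor of MYC targets, lies next beyond METTL16. The window with its start (chr17:2398501-2408500) shared 11 and 12 read pairs with the viewpoint in hESCs against 6.28 and 6.44 expected, and 3 and 3 in neuroectoderm against 2.45 and 2.31. Both MNT windows together gave 1.68 ± 0.29 in hESCs and 1.12 ± 0.57 in neuroectoderm (SD, n = 2 each). The neuroectoderm value rested on 9 read pairs in all, and its interval of 0.51 to 2.11 spans the hESC value. In all, 7 of 145 partners were above 1 in every library. Of these, 6 lay from the start of MNT to the stretch before PAFAH1B1, and the other, in RPA1, held 4 read pairs over all libraries. The share of all window pairs above 1 in every library was not computed, so these 7 are a description and not an excess.

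RAP1GAP2, which encodes a GTPase-activating protein for RAP1, lies toward higher coordinates beyond CLUH, a gene needed for mitochondrial biogenesis, and CCDC92B. Its 24 windows beyond the start window shared 43 and 34 read pairs with the viewpoint in hESCs against 76.4 and 72.7 expected. In neuroectoderm they shared 15 and 15 against 33.0 and 35.4. The ratio was 0.52 ± 0.07 in hESCs and 0.44 ± 0.02 in neuroectoderm, with summed intervals of 0.41 to 0.65 and 0.30 to 0.63. All 4 libraries were below 1 over these 24 windows. The window with its start (chr17:2748501-2758500), counted with CLUH and CCDC92B, shared 4, 7, 1 and 5 read pairs against 7.65, 8.18, 3.05 and 2.85. That start window was above 1 in neuroectoderm replicate 2, at 1.75. Of the 145 partners 38 were below 1 in every library, 18 of them with 0 read pairs in all 4 libraries, and the 38 included 12 windows of RAP1GAP2 and 7 of SMG6. For this count and the next, the share over all window pairs was not computed either. A far partner is below 1 whenever it holds no read pair, which is common where few are expected. Among the 46 partners with at least 10 expected read pairs over the libraries, 8 were below 1 in every library, of which 6 lay in RAP1GAP2, 1 held the start of CLUH and 1 lay in METTL16 beside its start. By the mean of the 4 library ratios, the 5 lowest of these 46 partners all fell in RAP1GAP2, where chr17:2788501-2798500 was lowest with 2, 1, 0 and 1 read pairs against 3.86, 3.63, 1.98 and 1.86. The 5 highest by that mean all fell in METTL16 or at its start, led by chr17:2438501-2448500 with 5, 9, 6 and 4 read pairs against 4.94, 5.01, 2.53 and 2.44. By read pairs summed over the libraries the MNT start window was highest instead, at 1.66. In METTL16, chr17:2488501-2498500 then gave 1.62 and chr17:2438501-2448500 gave 1.61. Ratios in single windows carry wide errors, and this order is a description.

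HIC1 and SMG6, as 1 block, lay below 1 in every library, at 0.65 and 0.89 in hESCs and 0.46 and 0.54 in neuroectoderm. The summed intervals were 0.60 to 0.96 and 0.32 to 0.75. Other blocks lay nearer to 1 or varied between libraries. The body of PAFAH1B1 itself gave 1.08 ± 0.07 in hESCs and 1.04 ± 0.01 in neuroectoderm. The stretch between METTL16 and PAFAH1B1, counted from the METTL16 start window, gave 0.99 and 1.43 in hESCs and 1.22 and 1.09 in neuroectoderm. Its hESC intervals of 0.83 to 1.18 and 1.23 to 1.65 did not overlap, so its replicates disagreed more than the groups. CLUH and CCDC92B, with the RAP1GAP2 start window, gave 0.80 ± 0.11 and 0.92 ± 0.37. The windows of SRR to SGSM2 gave 0.85 ± 0.04 and 0.84 ± 0.24. The window with the SRR start was counted with HIC1 and SMG6. All errors are SD over 2 libraries.

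**Figure D2:**
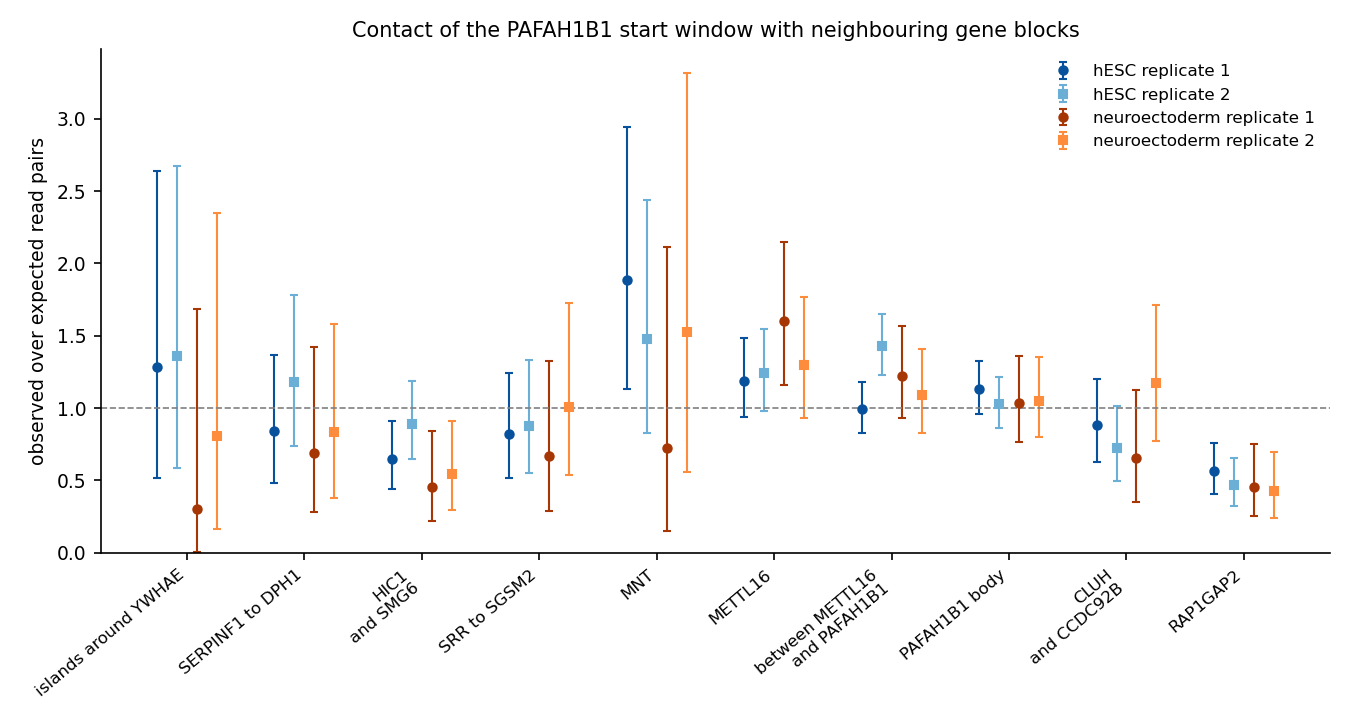
Observed over expected read pairs (vertical axis) between the PAFAH1B1 start window and blocks of windows named by gene, ordered along the chromosome, for each library, with 95% Poisson intervals as bars and a dashed line at 1. METTL16 lies above 1 in all 4 libraries and RAP1GAP2 lies at 0.56 or below, each without its start window.

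The study's enhancer HAR123 lies in intron 9 of SMG6, the gene of a nuclease that cleaves transcripts in nonsense-mediated decay. This intron (chr17:2236638-2244657) falls in 2 windows of the grid. The lower one, chr17:2228501-2238500, shared 1, 3, 0 and 0 read pairs with the PAFAH1B1 start in hESC replicates 1 and 2 and neuroectoderm replicates 1 and 2, where 1.90, 1.49, 0.96 and 1.06 were expected. The upper one, chr17:2238501-2248500, shared 2, 1, 1 and 0, where 2.83, 2.53, 1.28 and 1.28 were expected. The floor of 3 read pairs lies above every one of these expectations, so a shortfall of contact was not detectable at this depth. HIC1, a transcriptional repressor gene that shares its window (chr17:2048501-2058500) with MIR132 and MIR212, shared 2, 1, 0 and 0 read pairs with the viewpoint, where 0.88, 0.93, 0.42 and 0.40 were expected.

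Of the windows listed for the region, 18 had values, namely 15 with gene starts, the end of PAFAH1B1 and both HAR123 windows. Those with YWHAE, SLC43A2, PRPF8 and RILP lay in stretches with no value in at least 1 library. YWHAE, the gene of 14-3-3 epsilon, could therefore not be paired with PAFAH1B1. A mean ratio above 1 was found for 11 of the 18 windows in hESCs and 5 in neuroectoderm, of which 9 and 5 held gene starts. Without hESC replicate 1 the first count was 7, because several far windows, such as those of CRK and INPP5K, were above 1 through 1 read pair in that library. These counts say little about the far genes, whose expectations were below 1 read pair. The share of all 145 partners with a mean above 1 was not computed in either group. The counts of 11 and 5 therefore show no difference particular to the listed windows.

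The ratios were next compared with those of the 20 nearest windows, 10 on each side of the viewpoint, as a description. For METTL16, 10 of the 20 neighbours exceeded the viewpoint in hESCs and 10 in neuroectoderm. The ratio rose along PAFAH1B1 to 2.46 in hESCs and 2.32 in neuroectoderm at chr17:2668501-2678500, near the far end of the gene. For RAP1GAP2, 17 of 20 neighbours in hESCs and 20 of 20 in neuroectoderm exceeded the viewpoint, with medians of 0.61 and 0.66. The viewpoint was thus the lowest of these windows in neuroectoderm. For MNT in hESCs, 1 of 20 neighbours exceeded the viewpoint's 1.68, and their median was 0.90. In neuroectoderm 9 of 20 exceeded the viewpoint's 1.11 for MNT, and their median was 1.01. For the islands around YWHAE, 2 of 20 exceeded the viewpoint's 1.32 in hESCs, whereas all 20 exceeded its 0.57 in neuroectoderm, which rested on 4 read pairs. For HIC1 and SMG6, 6 of 20 exceeded the viewpoint's 0.77 in hESCs and 10 of 20 its 0.50 in neuroectoderm. The neighbour medians for that block were 0.68 and 0.50, so its low ratio was not particular to the viewpoint. Neighbouring windows share their partners, and no test was applied to this ranking.

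**Figure D3:**
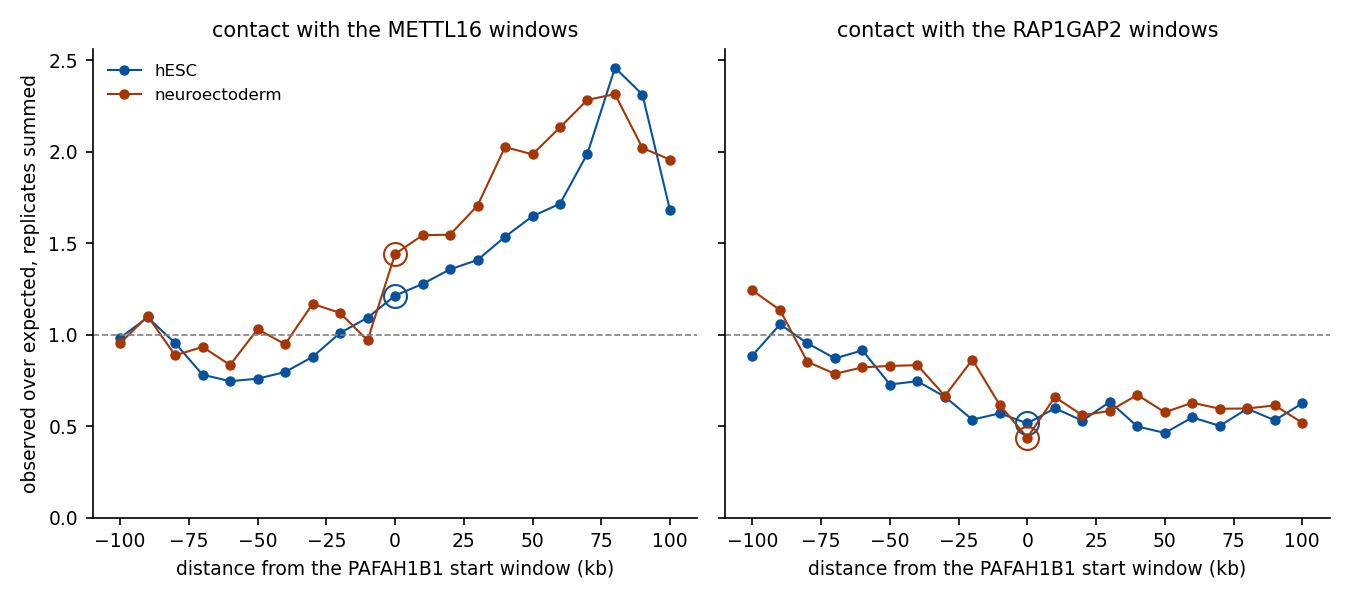
Observed over expected read pairs (replicates summed) with the METTL16 windows (left) and the RAP1GAP2 windows (right), seen from each window within 100 kb of the PAFAH1B1 start, in hESCs and neuroectoderm, with the viewpoint ringed. Contact with METTL16 is highest about 80 kb into PAFAH1B1, at 2.46 and 2.32, and not at the start.

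The pairs called above the expectation in both hESC libraries numbered 18 in the whole matrix, and 2 of them enclosed the viewpoint. They joined chr17:2668501-2678500, in PAFAH1B1, to chr17:2478501-2488500 and chr17:2488501-2498500, both in METTL16. The first pair held 14 and 16 read pairs in hESCs against 4.50 and 4.81 expected, and 3 and 5 in neuroectoderm against 2.13 and 1.91. The second held 17 and 20 against 6.12 and 5.69, and 4 and 6 against 2.39 and 2.58. From the start of PAFAH1B1 the same METTL16 windows gave lower ratios in hESCs. The first shared 10 and 13 read pairs with the viewpoint against 7.07 and 6.97 expected in hESCs, and the second shared 15 and 17 against 9.72 and 8.98. In neuroectoderm the first shared 1 and 4 read pairs, and the second 6 and 5 against 3.78 and 4.03. The 2 pairs were picked because they were called in hESCs, and the viewpoint had no called partner. Lower hESC ratios at the viewpoint are largely built into that choice.

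Between the cell types, no contact of the viewpoint changed by the test. In limma on log2(value + 1), 60 of the 145 viewpoint pairs passed the filter on low values and 0 passed an adjusted p of 0.05, where 0% of 4479 pairs tested over the matrix did. At an unadjusted p of 0.05 it was 2 of 60, against 5.65% of all pairs, and voom on the recovered read pairs called 0 of 60 adjusted and 2 unadjusted. The median change, neuroectoderm minus hESC, was -0.08 over the 60 pairs and -0.02 over all pairs, and 26 of the 60 were higher in neuroectoderm. Every pair of the viewpoint had an adjusted p of at least 0.781. The 2 pairs with the smallest p pointed in opposite directions. With chr17:2328501-2338500, which holds the starts of TSR1 and SGSM2, the change was 1.47 ± 0.54 (SE) and rested on 2, 1, 2 and 3 read pairs. With chr17:2548501-2558500 it was -1.001 ± 0.37 (SE), from 21 and 31 read pairs in hESCs and 6 and 5 in neuroectoderm. The other 3 of the 5 smallest lay in SGSM2 (-1.74 ± 0.81) and in METTL16 (0.76 ± 0.38 and 1.15 ± 0.58). As no pair anywhere in the matrix passed the adjusted test, these values do not show that the contacts of the viewpoint were alike in both cell types.

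**Figure D4:**
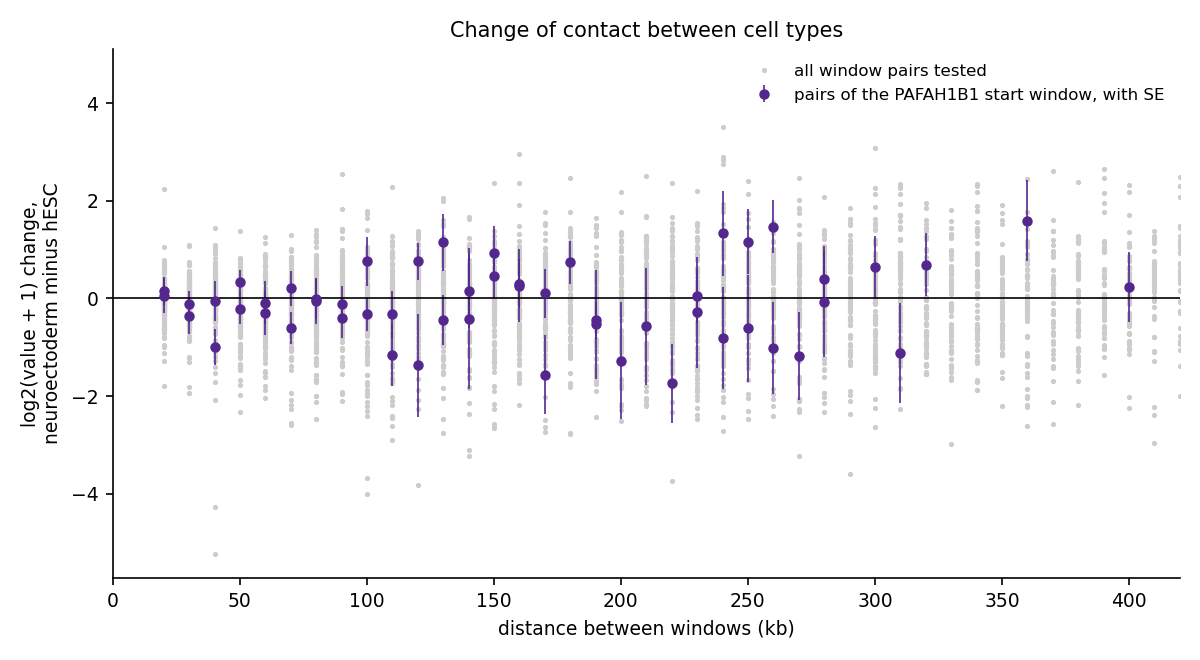
Change in contact between cell types (log2(value + 1), neuroectoderm minus hESC) against the distance between windows in kb, for pairs of the PAFAH1B1 start window (points with SE) and all pairs tested (grey). The 60 viewpoint pairs scatter around 0 within the cloud of all pairs.

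Taking blocks of windows in place of single ones gave the same outcome. A limma fit over 1289 pairs of a window and a block called 0% at an adjusted p of 0.05, so 0 of the 10 blocks of the viewpoint were called. At an unadjusted p of 0.05 it was 1 of 10, against 8.77% of all. The change was 0.24 ± 0.19 (SE) for METTL16 (limma adjusted p = 0.709) and -0.21 ± 0.35 (SE) for RAP1GAP2 (limma adjusted p = 0.865). It was -0.64 ± 0.38 for MNT and -0.58 ± 0.31 for HIC1 and SMG6. The block with the unadjusted call was the islands of measured windows around YWHAE, at -1.18 ± 0.42, which held 7, 8, 1 and 3 read pairs. None of these differences exceeded the spread between libraries by the adjusted test.

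Domain position was read from the insulation score, the log2 contact between the 10 windows on either side of a window over its mean across windows, where low values mark borders. At the viewpoint it was 0.50 and 0.53 in hESCs and 0.41 and 0.47 in neuroectoderm, above 79 to 88 of the 104 windows scored. The start of PAFAH1B1 therefore sat at a high and not at a low of the score. The lowest hESC values among the 30 windows on each side were -0.58 ± 0.03 (SD, n = 2), 290 kb toward lower coordinates at the starts of SMG6 and SRR, and -0.67 ± 0.12, 110 kb toward higher coordinates just past the end of PAFAH1B1. In neuroectoderm they were -0.81 ± 0.04 at 240 kb and -0.64 ± 0.10 at 180 kb.

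The change in the viewpoint's score was -0.07 ± 0.05 (SE; limma adjusted p = 0.268) and was not called, where 40.4% of windows were. When the score spanned 20 windows a side, the change was 0.13 ± 0.05 (SE; limma adjusted p = 0.0229), the opposite direction and past the threshold, where 59.5% of 84 windows were called. The direction of change at the viewpoint thus depends on the width of the score.

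**Figure D5:**
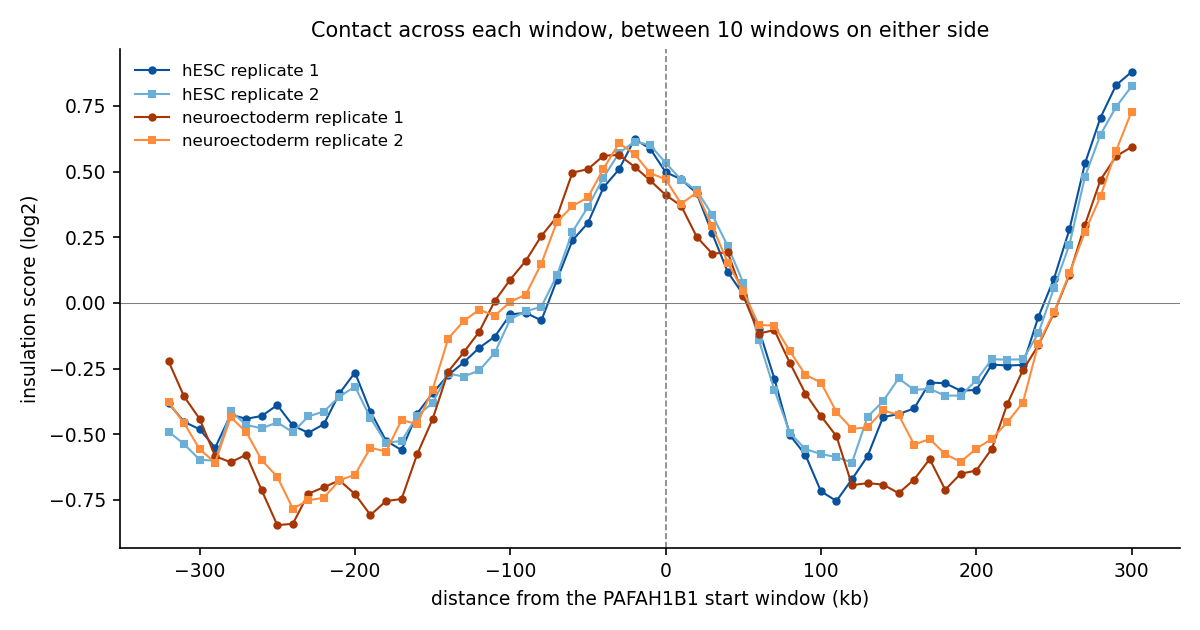
Insulation score (log2) of each 10-kb window by distance from the PAFAH1B1 start window in kb, per library. The start lies near a local high in all 4 libraries, at 0.41 to 0.53, between lows on both sides.

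The balance of contacts between the sides was measured from 20 to 200 kb. Toward higher coordinates, into and past PAFAH1B1, went 47.2% (95% Wilson interval 42.4 to 51.9) and 39.2% (34.8 to 43.7) of hESC read pairs. In neuroectoderm it was 38.3% (31.4 to 45.7) and 45.3% (38.4 to 52.4). The means of 43.2% ± 5.65 and 41.8% ± 4.97 (SD, n = 2 each) differed by less than the spread between replicates. The median over 84 windows was between 47.9% and 49.7% in the 4 libraries, and single windows ranged from 19.9% to 77.1%. The log2 ratio of the deposited values to the higher over the lower side changed by -0.07 ± 0.21 (SE; limma adjusted p = 0.900), where 3.57% of windows were called.

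The contact profile of the viewpoint was most like that of the METTL16 start, with Pearson's r of 0.30 over 142 shared partners, followed by INPP5K (0.22) and RAP1GAP2 (0.18). The profiles are observed over expected ratios with all libraries summed, and they share libraries and depth. These weak values are given as a description only.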

How the data were processed

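Per the labels and methods, the authors cross-linked the cells, made libraries with a Hi-C kit, aligned both ends separately to hg38 with bowtie2, removed duplicates and built matrices with HOMER (versions not given in the sources used here). The deposited values are a balanced contact signal, with 2000 overlapping bins of chromosome 17 at 1-kb steps. A bin was taken as 10 kb wide, from 4500 bp left of its name. This placement is an assumption that moves every window edge alike.

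Read pairs were recovered from the deposited signal as whole multiples of a factor per bin. In each library 100% of values above 0 came within 0.1 of a whole number. Intervals (95%) and the floor, set at 3 read pairs, describe counting error alone. Exact Poisson tests used Benjamini-Hochberg adjustment over all 10733 window pairs at least 20 kb apart. Cell types were compared with limma 3.58.1 (R 4.3.3) on signal scaled to 1 total, log2(value + 1), for pairs with a mean above the median, at an adjusted p of 0.05. This scale understates changes of low pairs. Scripts were tested on simulated data. Permuting 2 against 2 libraries cannot reach 0.05 and was not used.

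The viewpoint, gene list and tests were chosen with earlier results of these data known. Named partners were the listed gene starts, called windows, the 5 highest and 5 lowest ratios with at least 10 expected read pairs, and the 5 smallest limma p. Gene blocks, distance bands, the pairs enclosing the viewpoint and the 20 neighbours were chosen after seeing the data.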

Additional observations from a re-analysis of the deposited data

How the results depend on the processing

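The counts of 0 viewpoint partners above the expectation and of 0 changed viewpoint pairs were 0 under every alternative run. For the pairs with voom the median change of all pairs moved to 0.20, against -0.02. Libraries sharing a replicate number did not deviate together (r = -0.02 across 4479 window pairs), so the numbers were not taken as pairs. With the replicate block the viewpoint again had 0 changed pairs, the change was 0.24 ± 0.22 (SE) for METTL16, and the block changed no other call. The insulation change turned to 0.13 with 20 windows on either side. The side balance turned to 0.0743 with 5 windows, and to 0.0227, 0.0693 and 0.0860 with the viewpoint 2, 3 and 4 kb higher. It ranged from -0.32 to 0.17 with 1 library left out. The side share in neuroectoderm was 47.0% and 50.3% with the viewpoint 3 and 4 kb higher. With the viewpoint moved, METTL16 in hESCs gave 1.13, 1.16, 1.17, 1.29 and 1.27, and in neuroectoderm 1.22. RAP1GAP2 gave 0.60 and 0.59 in hESCs, and 0.57, 0.51, 0.49, 0.53, 0.48, 0.47, 0.56 and 0.55 in neuroectoderm, so both blocks kept their side of 1. With 1 library left out the listed windows above 1 in hESCs numbered 7 to 11, and uncalled block changes turned sign: -0.26 to 0.55 for CLUH and CCDC92B, -0.12 to 0.0194 for the PAFAH1B1 body, -0.31 to 0.25 for SRR to SGSM2 (0.0155 without hESC replicate 2), and -0.30 to 0.22 for the stretch between METTL16 and PAFAH1B1 (0.0363 without neuroectoderm replicate 2). In windows merged to 20 kb the change with chr17:2468501-2478500 turned to -0.0878. The cause was not tested for any of these. Among single listed windows, blocks and pairs, 408 values stayed alike, 227 moved and 7 changed sign. Depth limits all single partners.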
